A study of Mus musculus with 6 samples.

Results

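Guanylate-binding proteins (GBPs) are large GTPases of the dynamin superfamily, the proteins that bend, cut or coat membranes. Their genes are among the most strongly interferon-induced genes of vertebrates: interferon receptors signal through JAK kinases to transcription factors that act on short promoter motifs. The proteins assemble on the vacuoles of intracellular parasites and on the surface of cytosolic bacteria, and they promote the inflammasome, the complex that activates inflammatory caspases. In the brain they are known as interferon-response transcripts of reactive astrocytes, microglia and endothelial cells. The genes described here were all rows of the deposited expression table whose symbol is Gbp followed by digits. The rule found 7 genes among 14147 listed: Gbp2, Gbp3, Gbp5 and Gbp7 on chromosome 3, and Gbp4, Gbp6 and Gbp9 on chromosome 5.

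The series measured RNA from primary mouse astrocytes of wild-type genotype by RNA sequencing, after 24 h with human IgG against the water channel aquaporin-4 (AQP4-IgG, 3 libraries) or with human control IgG (Control-IgG, 3 libraries). AQP4-IgG is the serum antibody of neuromyelitis optica, in which it binds astrocytes. The series title speaks both of IgG added to the astrocytes and of conditioned medium, and the sources used here do not say how the medium entered the experiment, nor how pure the cultures were. Nothing in the labels ties a library to a culture, litter or animal, so the p-values below cover the spread between these libraries, part of which may be technical. Library totals, recovered from the deposited values, were 20.4 to 20.6 M reads for AQP4-IgG and 17.9 to 20.3 M reads for Control-IgG. Transcript levels are FPKM (reads per kilobase of exon, scaled to the total of the library), fold changes are ratios of group means unless the log2 scale is named, and an adjusted p is limma's after Benjamini-Hochberg adjustment over the 12334 genes whose mean reached 1 FPKM.

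The culture label was checked against markers of the cell types that such a preparation can hold. All 8 astrocyte markers were listed, with a summed level of 348 to 391 FPKM in AQP4-IgG libraries and 301 to 347 FPKM in Control-IgG libraries. Called higher were 3 of them, against 1.46% of all tested genes, and 5 were not called. The 3 were Slc1a2, Slc1a3 and Aqp4, which encodes the target of the antibody, and they were named after their values were seen. Gfap, the astrocyte intermediate filament, averaged 84.1 ± 6.97 FPKM in AQP4-IgG libraries, against 77.7 ± 8.29 FPKM in Control-IgG libraries (SD, n = 3 each). All 12 microglia and macrophage markers were listed too, with a summed level of 972 to 1104 FPKM in the AQP4-IgG libraries and 964 to 1240 FPKM in the Control-IgG libraries. Lyz2, a macrophage lysozyme, made up most of that sum (825 ± 55 FPKM in AQP4-IgG libraries, against 833 ± 113 FPKM in Control-IgG libraries), and Cx3cr1, the microglial fractalkine receptor, averaged 8.09 ± 0.95 FPKM in AQP4-IgG libraries, against 11.9 ± 1.4 FPKM in Control-IgG libraries (log2 fold change -0.51, adjusted p = 0.0427), a call kept in 7 of 13 alternatives. The other 10 of the 11 tested markers were not called, among them Itgam, an integrin subunit of myeloid cells, which was higher in each AQP4-IgG library than in any control (4.69 ± 0.372 FPKM in AQP4-IgG libraries, against 3.45 ± 0.384 FPKM in Control-IgG libraries, adjusted p = 0.0707) and was singled out after its values were seen. None of the 12 was at 0 in any library. Of the other marker lists, 3 of 6 endothelial, 4 of 7 fibroblast and mural, 4 of 7 oligodendrocyte-lineage, 2 of 7 neuronal and 0 of 7 T and NK cell markers were listed. The endothelial sum was 4.93 to 5.48 FPKM in AQP4-IgG libraries, against 4.43 to 4.85 FPKM in Control-IgG libraries. The oligodendrocyte-lineage sum was 46.6 to 50.6 FPKM in AQP4-IgG libraries, against 52.5 to 56.2 FPKM in Control-IgG libraries, while the neuronal sums overlapped. The fibroblast and mural sum was 2016 to 2358 FPKM in AQP4-IgG libraries, against 2658 to 2920 FPKM in Control-IgG libraries, and nearly all of it was Acta2, smooth muscle actin (log2 fold change -0.38, adjusted p = 0.0243). In such bulk RNA, a change in the number of cells of a type and a change in RNA per cell cannot be told apart, and the part of these marker levels in the GBP values was not tested.

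GBP promoters are textbook targets of interferon signalling. RefSeq promoter windows (GRCm38.p6, 250 bases before to 50 bases after a transcript start) could be matched by symbol for 4 of the 7 genes, all of them on chromosome 3. The interferon-stimulated response element (ISRE), bound by complexes of interferon regulatory factors, was searched on both strands as GAAANNGAAA, whose reverse complement is TTTCNNTTTC. Each of the 4 genes had at least 1 match, on the minus strand, so that the printed plus strand shows the TTTCNNTTTC form. The stretch around the match is shown for each gene because all 4 genes share this element, with the matched bases in capitals, 5′ to 3′ on the plus strand, which is the strand of the genes.
Gbp2, chr3:142620539-142620623: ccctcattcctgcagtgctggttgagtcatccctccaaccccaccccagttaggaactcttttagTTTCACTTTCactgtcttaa
Gbp3, chr3:142559934-142560024: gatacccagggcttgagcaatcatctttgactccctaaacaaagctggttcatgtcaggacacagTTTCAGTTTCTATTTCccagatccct
Gbp5, chr3:142496704-142496788: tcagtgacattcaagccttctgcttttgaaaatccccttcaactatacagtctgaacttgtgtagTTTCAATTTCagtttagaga
Gbp7, chr3:142530218-142530302: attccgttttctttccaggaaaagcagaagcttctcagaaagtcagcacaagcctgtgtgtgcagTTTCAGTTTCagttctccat

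Counted from the RefSeq start, the match began at -59 in Gbp2, at -45 in Gbp3, at -165 in Gbp5 and at -53 in Gbp7. Gbp3 held a second match that overlaps the first, and the window of its other RefSeq start held none. The element occurs in 3.44% of 32851 promoter windows of this length. Among tested genes with a window it occurs in 331 of 9103 (3.64%), and among those higher with AQP4-IgG in 30 of 135 (22.2%). Both counts include Gbp2, Gbp3 and Gbp7, and the first also includes Gbp5. The gamma-activated site, a promoter motif of interferon-gamma signalling, was searched as TTCNNNGAA, which reads the same on both strands. It had 2 matches each in the windows of Gbp5 and Gbp7 and none in those of Gbp2 and Gbp3, against 8.3% of all windows with at least 1. For Gbp2 the RefSeq start lies 61 bases inside the gene model of the deposited table, so its ISRE match falls just inside that model, and for Gbp5 the RefSeq start lies 2956 bases inside it.

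Every GBP gene was higher with AQP4-IgG, and in all 7 genes each AQP4-IgG library exceeded each Control-IgG library, an order that 10.3% of all listed and 10.4% of all tested genes showed. The ratio of group means ran from 1.81 for Gbp7 to 4.74 for Gbp4, with a median of 2.84 against 1.00 over all listed genes. Of the 6 genes that reached the tested level, 5 passed the adjusted p threshold upward (Gbp2, Gbp3, Gbp6, Gbp7 and Gbp9), and 0 passed downward. With 1 library left out, between 1 of 6 and 6 of 6 passed, while the calls over all genes ran from 55 to 390. Of all tested genes, 1.46% passed upward, 0.632% downward and 2.09% either way. The 5 genes also passed in limma-voom on recovered reads, which called 2.81% of its genes higher, and with no filter on low values, which called 1.15% higher. Gbp5 did not pass and Gbp4 lay under the tested level. Gbp5 and Gbp6 averaged under 1 FPKM with Control-IgG and were tested because of their AQP4-IgG level, so the count of 5 of 6 is given as a description.

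**Figure D1:**
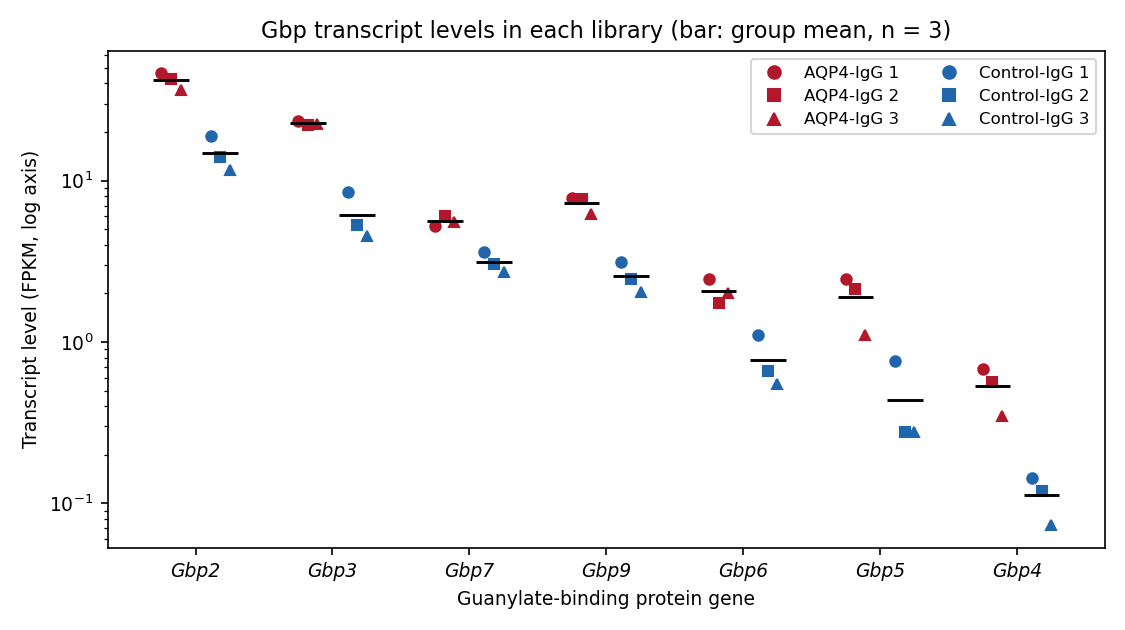
Level of each Gbp gene in FPKM (log axis) in each of the 3 AQP4-IgG libraries (red, left of each pair) and the 3 Control-IgG libraries (blue, right), with marker shapes for library numbers and a bar at each group mean. In all 7 genes the red points lie above the blue ones, and Control-IgG 1 (blue circle) is the highest control.

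Gbp2 (ENSMUSG00000028270, chr3:142620602-142638008, plus strand), a prenylated GBP that is recruited to Toxoplasma vacuoles in mouse cells, was the most abundant of the 7. Its level was 46.2, 42.6 and 36.3 FPKM in AQP4-IgG libraries 1 to 3, against 18.9, 13.9 and 11.7 FPKM in Control-IgG libraries 1 to 3. The lowest AQP4-IgG library was thus 1.92 times the highest control. The group means were 41.7 ± 4.99 FPKM in AQP4-IgG libraries, against 14.8 ± 3.68 FPKM in Control-IgG libraries (SD, n = 3 each), a ratio of 2.81 and a log2 fold change of 1.45 on the FPKM + 1 scale with an SE of 0.18 (adjusted p = 0.0267). Coordinates here and below are those of the deposited table (GRCm38). That change ranked 21 among the 12334 tested genes, and the gene's mean level over the 6 libraries was at or above that of 87.1% of listed genes. The call of Gbp2 ended without AQP4-IgG 1, 2 or 3 (adjusted p = 0.124, 0.141 and 0.0509) and without Control-IgG 2 (adjusted p = 0.121).

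Gbp3 (ENSMUSG00000028268, chr3:142560026-142573209, plus strand), which lies next to Gbp7 in the chromosome 3 cluster, showed the largest log2 fold change of the tested GBP genes on the FPKM + 1 scale. Gbp5 exceeded it in the ratio of means, in limma-voom on recovered reads (2.17 for Gbp5, 1.93 for Gbp3) and, narrowly, with a pseudocount of 0.1 (1.93 for Gbp5, 1.92 for Gbp3). It had 23.4, 22.2 and 22.3 FPKM in AQP4-IgG libraries 1 to 3, against 8.55, 5.28 and 4.53 FPKM in Control-IgG libraries 1 to 3. The AQP4-IgG libraries lay within 1.05-fold of each other, while the controls spanned 1.89-fold. The ratio of means was 3.7 and the log2 fold change 1.77 with an SE of 0.21 (adjusted p = 0.0203), rank 12 among all tested genes. Gbp3's call ended without any 1 AQP4-IgG library (adjusted p = 0.116, 0.108 and 0.0691 without libraries 1, 2 and 3) and without Control-IgG 2 (adjusted p = 0.0923).

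Gbp5 (ENSMUSG00000105504, chr3:142493978-142522344, plus strand), a prenylated GBP known in mouse macrophages for promoting the NLRP3 inflammasome, was low in both groups and the most variable among AQP4-IgG libraries. It had 2.44, 2.12 and 1.10 FPKM in AQP4-IgG libraries 1 to 3, which is 332, 287 and 151 reads. Control-IgG libraries 1 to 3 had 0.763, 0.277 and 0.278 FPKM, which is 103, 33 and 37 reads. AQP4-IgG 3 held less than the other AQP4-IgG libraries and Control-IgG 1 more than the other controls, and without either of them Gbp5 passed (adjusted p = 0.0192 and 0.0366). With all 6 libraries the ratio of means was 4.3, the log2 fold change 0.99 (SE 0.21) and the adjusted p = 0.0717. The pseudocount of 1 compresses a gene of this level: with a pseudocount of 0.1 the log2 fold change was 1.93 (adjusted p = 0.074), and on recovered reads with limma-voom it was 2.17 (adjusted p = 0.234).

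Gbp7 (ENSMUSG00000040253, chr3:142530342-142550149, plus strand), known in mouse macrophages for helping NADPH oxidase assemble on phagosomes, moved least. It had 5.25, 6.06 and 5.57 FPKM in AQP4-IgG libraries 1 to 3, against 3.59, 3.02 and 2.73 FPKM in Control-IgG libraries 1 to 3. The group means were 5.62 ± 0.411 FPKM in AQP4-IgG libraries, against 3.11 ± 0.439 FPKM in Control-IgG libraries, a ratio of 1.81. The log2 fold change was 0.69 with an SE of 0.087 (adjusted p = 0.00822). Its small change came with a small spread, and the call ended only without Control-IgG 2 (adjusted p = 0.0523) among the 13 alternatives.

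On chromosome 5, Gbp9 (ENSMUSG00000029298, chr5:105077630-105139539, minus strand), which is recruited to Toxoplasma vacuoles in mouse cells, gave the smallest p of the family. Gbp9 had 7.80, 7.72 and 6.21 FPKM in AQP4-IgG libraries 1 to 3, against 3.14, 2.47 and 2.05 FPKM in Control-IgG libraries 1 to 3. The lowest AQP4-IgG library was 1.98 times the highest control. The means were 7.24 ± 0.894 FPKM in AQP4-IgG libraries, against 2.55 ± 0.546 FPKM in Control-IgG libraries, a ratio of 2.84. The log2 fold change was 1.22 with an SE of 0.12 (adjusted p = 0.00435). Gbp9 kept its call in all 13 alternatives (adjusted p from 0.00019 to 0.0395), including each of the 6 fits with a library left out.

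Gbp6 (ENSMUSG00000104713, chr5:105270702-105293698, minus strand) and Gbp4 (ENSMUSG00000079363, chr5:105115767-105139586, minus strand) were the low members of that cluster. Gbp6 had 2.45, 1.74 and 2.02 FPKM in AQP4-IgG libraries 1 to 3, against 1.10, 0.656 and 0.553 FPKM in Control-IgG libraries 1 to 3, a ratio of means of 2.69. The log2 fold change was 0.80 with an SE of 0.13 (adjusted p = 0.0217), and no AQP4-IgG library lay as low as the highest control. Its call ended without any 1 library other than Control-IgG 1 (adjusted p from 0.054 to 0.108). The level of Gbp6 is uncertain, because 70.7% of the 50-base stretches of its transcripts also occur in other genes, 65% in Gm43302 and 46% in Gbp10. Gbp4 had 0.683, 0.563 and 0.350 FPKM in AQP4-IgG libraries 1 to 3, against 0.144, 0.119 and 0.0732 FPKM in Control-IgG libraries 1 to 3. These are 105, 86 and 54 reads with AQP4-IgG and 22, 16 and 11 reads with Control-IgG, above the 3 reads taken as the floor. Fitted with no filter on low values, Gbp4 had a log2 fold change of 0.46 on the FPKM + 1 scale and an adjusted p = 0.11. The pseudocount of 1 compresses this value, as for Gbp5, and the ratio of means was 4.74.

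Gbp9, Gbp4 and Gbp8 overlap on the minus strand, and their annotated exons share 60 bases. Of the 50-base stretches of Gbp9 and Gbp4 transcripts, 8.05% and 7.7% occur in another gene. The corresponding shares were 2.03% for Gbp2, 3.75% for Gbp3, 1.44% for Gbp5 and 12.7% for Gbp7. The deposited values of all 7 genes correspond to whole reads in every library, within 0.0022 of a read. How reads with several matches were counted is not given in the sources used here.

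The authors' deposited table gives log2 fold changes of 1.49 for Gbp2, 1.91 for Gbp3, 2.13 for Gbp5, 0.84 for Gbp7, 1.49 for Gbp9, 2.18 for Gbp4 and 1.43 for Gbp6. Its adjusted p-values for Gbp3, Gbp2, Gbp9 and Gbp7 are 2.06e-05, 6.53e-05, 6.53e-05 and 0.000528. Those of Gbp6, Gbp4 and Gbp5 are 0.00331, 0.00899 and 0.0172 in the authors' deposited table, which marks 6 of the 7 genes as up and Gbp7 as not regulated.

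The 7 genes together summed to 88.1, 83.0 and 73.9 FPKM in AQP4-IgG libraries 1 to 3, against 36.1, 25.8 and 21.9 FPKM in Control-IgG libraries 1 to 3. The ratio of mean sums was 2.92. Gbp2 held 51% ± 1.64 of this sum with AQP4-IgG and 53.2% ± 0.947 with Control-IgG (SD, n = 3 each). The makeup differed most for Gbp3 and Gbp7. Gbp3 held 26.5% to 30.2% of the sum with AQP4-IgG, against 20.5% to 23.7% with Control-IgG. Gbp7 held 5.95% to 7.53% with AQP4-IgG, against 9.93% to 12.5% with Control-IgG. For these shares, and for the small share of Gbp4, the groups did not overlap, which in an exact two-sided permutation test of 3 against 3 libraries gives p = 0.1, the smallest that this design allows.

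Gbp2 and Gbp9, on different chromosomes, moved by nearly the same factor. The log2 ratio of Gbp2 to Gbp9 on the FPKM + 1 scale was 2.42, 2.32 and 2.37 in AQP4-IgG libraries 1 to 3, against 2.26, 2.10 and 2.05 in Control-IgG libraries 1 to 3. The difference of 0.23 (exact two-sided permutation p = 0.1, the smallest possible) depended on the pseudocount. With a pseudocount of 0.1 it was 0.026 (exact permutation p = 0.8), and on recovered reads per kilobase it was -0.0041 (exact permutation p = 1).

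Control-IgG 1 was the highest control in all 7 genes and Control-IgG 3 the lowest in 6, Gbp5 being the exception. AQP4-IgG 1 was the highest of its group in 6 genes, Gbp7 being the exception, and AQP4-IgG 3 the lowest in 4, while AQP4-IgG 2 was lowest for Gbp3 and Gbp6 and AQP4-IgG 1 for Gbp7. The share of all genes with these orders was not computed. Averaged over the 7 genes, log2(FPKM + 1) lay 1.17, 1.08 and 0.91 above the Control-IgG mean in AQP4-IgG libraries 1 to 3 and at 0.26, -0.068 and -0.19 in Control-IgG libraries 1 to 3. The summed microglia and macrophage markers were 1104, 972 and 1032 FPKM in AQP4-IgG libraries 1 to 3 and 1240, 964 and 1007 FPKM in Control-IgG libraries 1 to 3, so Control-IgG 1 was also the highest library there, and AQP4-IgG 1 the highest of its group. Libraries 2 and 3 of each group stood in the opposite order to the GBP average. The astrocyte marker Gfap was also highest in library 1 of each group. It had 90.6, 84.9 and 76.7 FPKM in AQP4-IgG libraries 1 to 3 and 86.2, 69.6 and 77.4 FPKM in Control-IgG libraries 1 to 3. Aqp4, by contrast, was highest in AQP4-IgG 2 within its group (133 FPKM). How marker levels relate to the GBP levels was not tested. The count of GBP genes that passed moved with the library left out. It was 2 of 5 tested without AQP4-IgG 1, 2 of 5 without AQP4-IgG 2 and 3 of 6 without AQP4-IgG 3. It was 6 of 6 without Control-IgG 1, 1 of 6 without Control-IgG 2 and 4 of 6 without Control-IgG 3. The calls over all genes moved as well, with 78, 66 and 172 genes without AQP4-IgG 1, 2 and 3. They were 390, 55 and 117 genes without Control-IgG 1, 2 and 3.

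**Figure D2:**
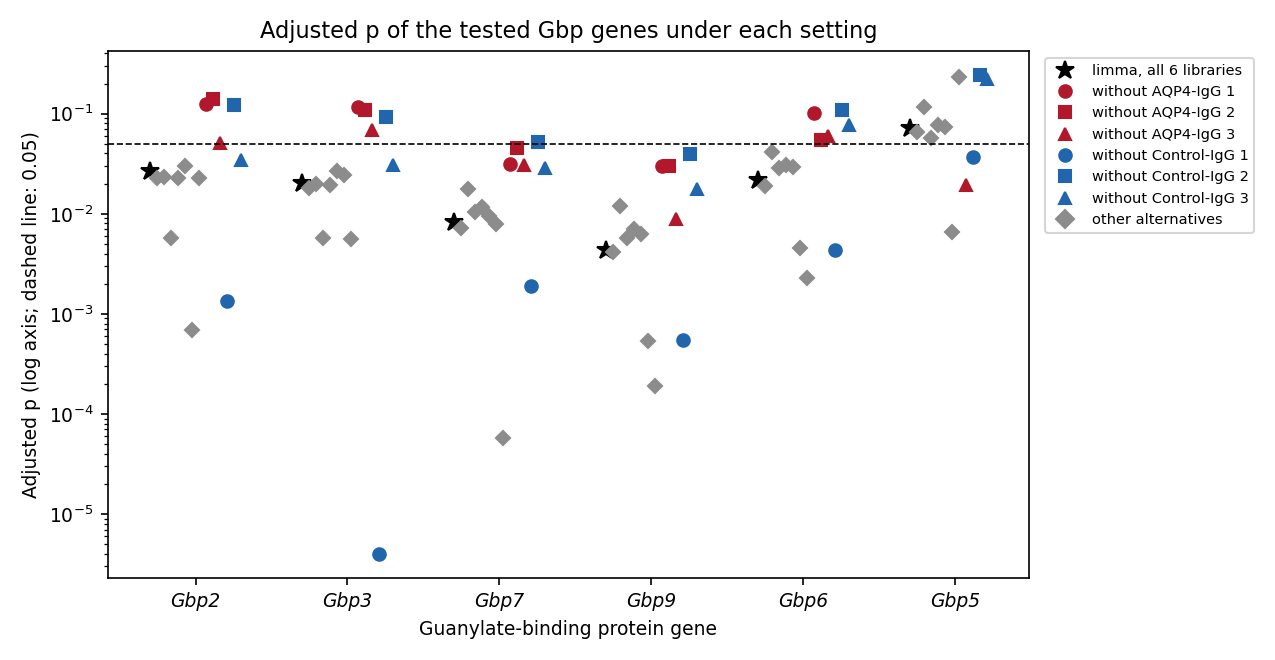
Adjusted p (log axis) of the 6 tested Gbp genes in limma on all 6 libraries (star), with 1 library left out (red and blue shapes) and under 7 other alternatives (grey diamonds); points under the dashed line at 0.05 are called. Gbp9 lies under the line in every fit, and Gbp2, Gbp3 and Gbp6 cross it in 4, 4 and 5 of the 6 fits with a library left out.

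None of the tested genes around either cluster was called higher, against 1.46% of all tested genes, so this is given as a description. The chromosome 3 cluster holds 6 family models over 175064 bases and the chromosome 5 cluster 6 models over 332323 bases. Gbp2b, Gbp8, Gbp10, the pseudogene Gbp2-ps and the polymorphic pseudogene Gbp11, which lie among them, were not among the listed genes and were not analysed here. Of the 12 nearest listed genes, 3 on each side of each cluster, 9 were tested, 0 were called higher and 1 lower. That gene, Pdlim5, a PDZ and LIM domain protein of the actin cytoskeleton, averaged 87.7 ± 3.75 FPKM in AQP4-IgG libraries, against 107 ± 6.18 FPKM in Control-IgG libraries (log2 fold change -0.28, adjusted p = 0.0358) and kept the call in 7 of 13 alternatives. It was named after its value was seen. The ratio of means of all 12 lay between 0.756 and 1.15. Gtf2b, a general transcription factor 96004 bases after the chromosome 3 cluster, had a log2 fold change of -0.043 (adjusted p = 0.86). Lrrc8b, a subunit of volume-regulated anion channels 69303 bases from the chromosome 5 cluster, had a log2 fold change of 0.080 (adjusted p = 0.744).

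**Figure D3:**
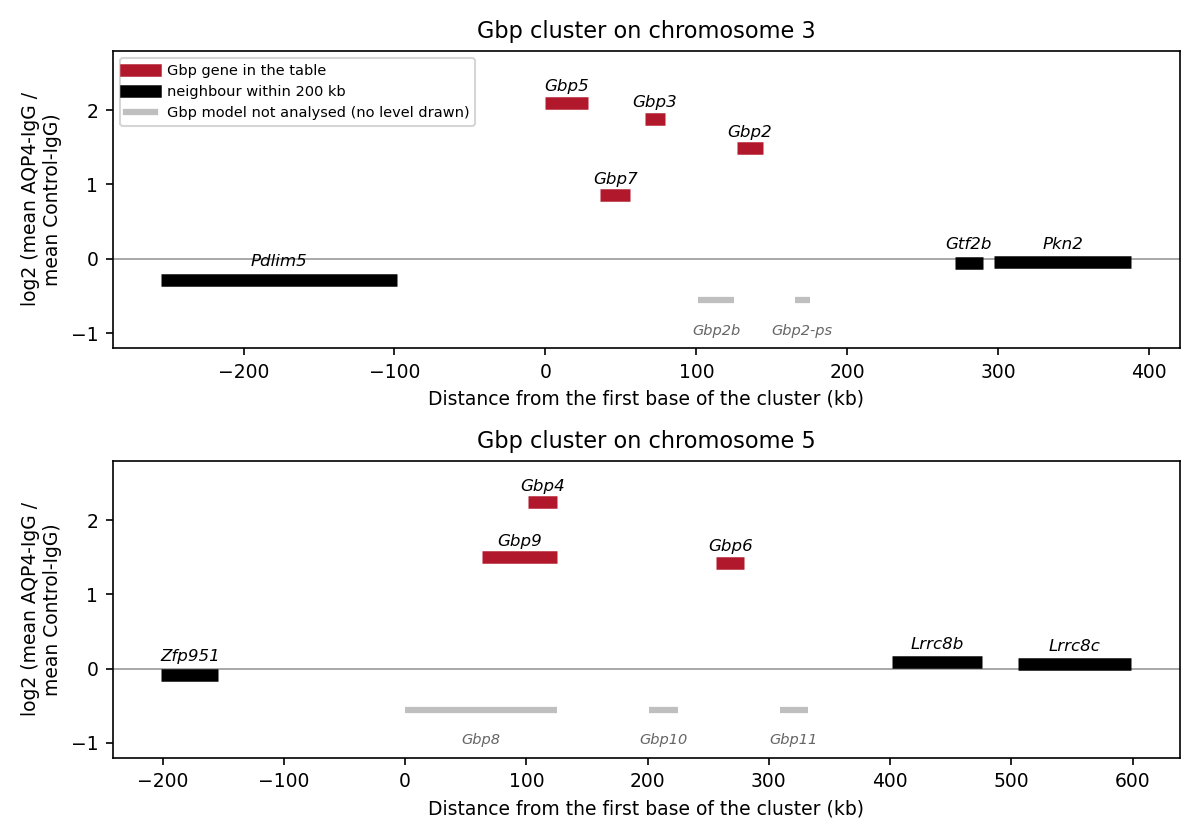
Log2 ratio of mean FPKM (AQP4-IgG over Control-IgG) of the Gbp genes (red) and of the nearer listed neighbours of each cluster (black), drawn at their extent in kb from the first base of the cluster; grey bars mark Gbp models that were not analysed and carry no level. The red bars correspond to ratios of 1.81 to 4.74, and the neighbours lie near a log2 ratio of 0.

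In the interferon pathway that induces GBP genes, Irf7, Stat2 and Irf9 rose, and none of the 4 receptor chains of type I interferon and interferon-gamma passed the test on all 6 libraries. Of 23 ligands, receptors, kinases and factors, 17 were tested, 4 were higher, 0 lower and 13 did not pass, with a median log2 fold change of 0.052. The shares over all tested genes were 1.46% higher and 0.632% lower. Irf7, a factor that amplifies type I interferon responses, rose to 16.0 ± 2.34 FPKM with AQP4-IgG, against 4.21 ± 1.15 FPKM with Control-IgG (adjusted p = 0.00984). Stat2, a signal transducer of type I interferon, rose 1.91-fold, with 10.6 ± 0.963 FPKM in AQP4-IgG libraries and 5.56 ± 0.996 FPKM in Control-IgG libraries (adjusted p = 0.0118). Irf9, which forms the DNA-binding part of the type I interferon complex, had a log2 fold change of 0.47 (adjusted p = 0.0414). Irf1, the factor by which interferon-gamma induces Gbp2 in mouse cells, averaged 4.82 ± 0.764 FPKM in AQP4-IgG libraries, against 3.17 ± 0.608 FPKM in Control-IgG libraries (log2 fold change 0.48, adjusted p = 0.116). Every AQP4-IgG library lay above every control for Irf1. It passed in 3 of 13 alternatives: with the replicate block, in limma-voom on recovered reads and without Control-IgG 1 (adjusted p = 0.00534, 0.0309 and 0.0297). The count of calls in this list was 0 when AQP4-IgG 2 or Control-IgG 2 was left out, 1 when AQP4-IgG 1 was, and 6 when Control-IgG 1 was. Over all genes, the same fits called 66, 55, 78 and 390 in that order.

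The receptor chains were present in both groups. Ifnar1 averaged 16.9 ± 0.737 FPKM in AQP4-IgG libraries, against 16.4 ± 1.03 FPKM in Control-IgG libraries (adjusted p = 0.843). Ifnar2, the other chain for type I interferon, averaged 9.55 ± 0.625 FPKM in AQP4-IgG libraries, against 9.66 ± 0.734 FPKM in Control-IgG libraries (adjusted p = 0.965). The interferon-gamma chain Ifngr1 averaged 38.5 ± 1.26 FPKM in AQP4-IgG libraries, against 37.7 ± 1.59 FPKM in Control-IgG libraries (adjusted p = 0.857). The second chain, Ifngr2, averaged 25.5 ± 0.634 FPKM in AQP4-IgG libraries, against 20.8 ± 3.32 FPKM in Control-IgG libraries (log2 fold change 0.30, adjusted p = 0.227). Each AQP4-IgG library exceeded each control for Ifngr2, and it passed without Control-IgG 1 (log2 fold change 0.42, adjusted p = 0.00391). The interferon genes Ifnb1, Ifng, Ifnl2 and Ifnl3 were not among the listed genes and were not analysed here. Among 12 negative regulators, of which 11 were tested, Usp18 and Socs3 were higher and 0 lower (median log2 fold change -0.021), against 1.46% higher and 0.632% lower of all tested genes. Usp18, an ISG15 protease that blocks signalling at IFNAR2, rose 3.14-fold (adjusted p = 0.0267), and Socs3, an inhibitor of cytokine receptor signalling, 1.42-fold (adjusted p = 0.0487). Neither passed without AQP4-IgG 1 or 2 or Control-IgG 2 or 3.

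Among related GTPases, the genes that passed were immunity-related GTPases. Of 24 dynamin-family and immunity-related GTPases outside the GBP family, 17 were tested, 4 were higher, 0 lower and 13 did not pass (median log2 fold change -0.020). Among all tested genes, 1.46% were higher and 0.632% lower. The 4, Irgm1, Iigp1, Ifi47 and Irgm2, belong to a group that acts with GBPs on parasite vacuoles in mouse cells. Irgm1 rose 1.93-fold and Iigp1 4.78-fold (adjusted p = 0.00435 each), Ifi47 rose 4.46-fold (adjusted p = 0.00822) and Irgm2 had a log2 fold change of 0.96 (adjusted p = 0.023). Iigp1 and Ifi47 averaged under 1 FPKM in Control-IgG libraries and, like Gbp5 and Gbp6, were tested because of their AQP4-IgG level, so the count of 4 is a description. Without Control-IgG 2 the count was 2. Igtp, another of that group, averaged 28.9 ± 4.26 FPKM in AQP4-IgG libraries, against 13.2 ± 3.46 FPKM in Control-IgG libraries (adjusted p = 0.074). The atlastins Atl1, Atl2 and Atl3, endoplasmic reticulum GTPases that are the closest relatives of GBPs, had log2 fold changes of 0.010, -0.033 and -0.036 (adjusted p = 0.978, 0.901 and 0.88).

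Of the protein machinery that GBPs work with, Casp1 alone passed among the tested genes of 3 lists. Of all tested genes, 2.09% passed either way, so this count is given as a description. CaaX prenylation anchors some GBPs to membranes, and 0 of its 6 genes passed (median log2 fold change -0.015). The smallest p was that of the farnesyl and geranylgeranyl transferase subunit Fnta, with 33.5 ± 1.17 FPKM in AQP4-IgG libraries, against 35.7 ± 0.81 FPKM in Control-IgG libraries (adjusted p = 0.411). The ATG8 conjugation machinery guides GBPs and immunity-related GTPases to vacuoles, and 0 of its 10 genes passed (median -0.0068, smallest p for Map1lc3a, adjusted p = 0.364). Of 15 inflammasome and pyroptosis genes, 9 were tested, 1 was higher, 0 lower and 8 did not pass (median 0.11). Casp1, the inflammatory caspase that inflammasomes activate, rose 1.34-fold to 11.4 ± 0.492 FPKM with AQP4-IgG, against 8.55 ± 0.73 FPKM with Control-IgG (adjusted p = 0.0243). This call held in 1 of the 6 fits with a library left out, the one without Control-IgG 1. Casp4, the mouse sensor of cytosolic lipopolysaccharide whose activation GBPs promote, lay under the tested level, with 1.46, 0.727 and 0.758 FPKM in AQP4-IgG libraries 1 to 3 and 0.450, 0.286 and 0.309 FPKM in Control-IgG libraries 1 to 3, and was looked up after its values were seen.

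**Figure D4:**
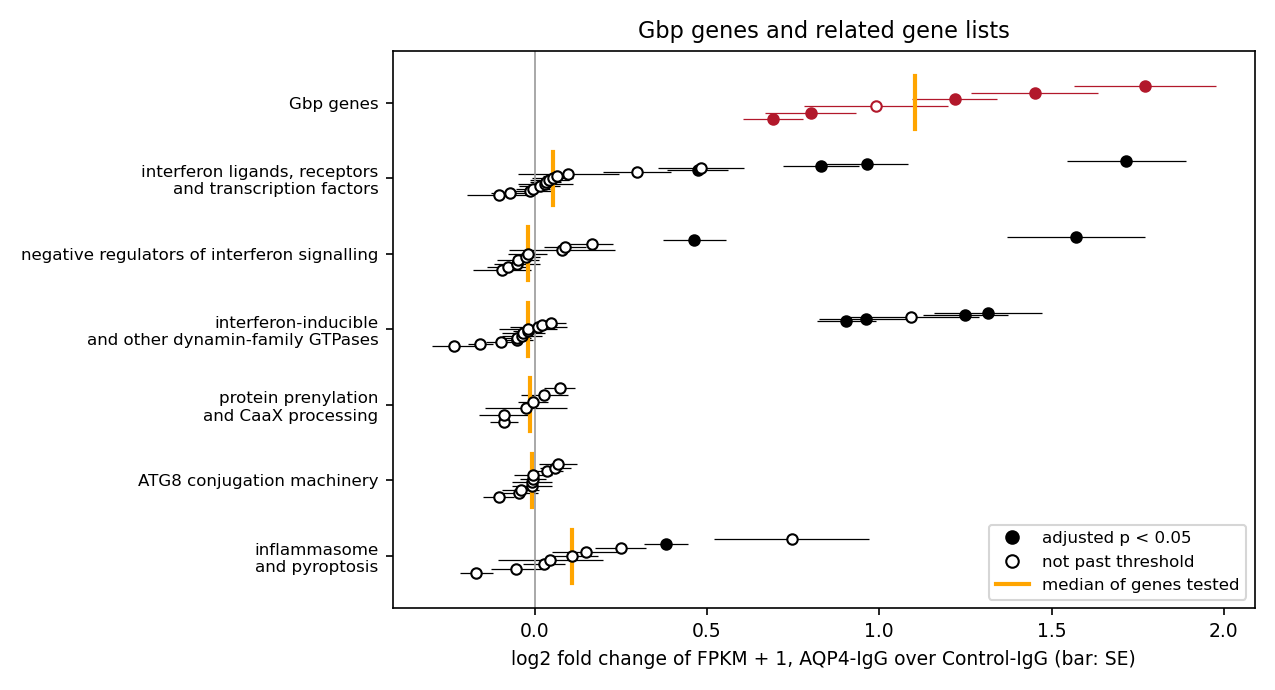
Log2 fold changes of FPKM + 1 (AQP4-IgG over Control-IgG, with SE) of the tested Gbp genes (red) and of the tested genes of 6 related lists (black); filled points passed an adjusted p of 0.05 and orange bars are medians. The Gbp genes lie between 0.69 and 1.77, and the medians of the 6 lists lie between -0.021 and 0.11.

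The genes whose profile over the 6 libraries was nearest to each GBP gene were found by the root mean square difference of log2(FPKM + 1) relative to the Control-IgG mean, a description with no test. The search covered tested genes only and left out those with clone, predicted-gene or pseudogene names. Nearest to Gbp2 were Rtp4 (0.0998 log2 units), Ifi47, H2-Q4, Usp18 and Lcn2. Nearest to Gbp3 were Ifit1 (0.0758), Oasl2, Ifi44, Irf7 and Usp18. Gbp7 lay nearest to Ifih1 (0.0566), Ddx60, Parp9, Ube2l6 and Ddx58. Gbp9 lay nearest to Iigp1 (0.076), Ifi47, Mnda, Igtp and Lgals3bp. The nearest genes of Gbp6 were Stat2 (0.0634), Cxcl16, Rnf213, Ifi35 and Pf4. Those of Gbp5 were Zbp1 (0.0946), H2-T23, Serpina3n, Ptx3 and Icam1. Those of Gbp4, which was not tested itself, were Ssc5d (0.043), Helz2, Trim21, Socs3 and Serping1. The pseudocount of 1 compresses low genes, so these matches need not have similar ratios of means. Gbp4, with a ratio of 4.74, lay near Socs3, with 1.42. Gbp5, with a ratio of 4.3, lay near Zbp1, with 4.67, and H2-T23, with 2.12. Of these nearest genes, Gbp2 and Gbp9 shared Ifi47 while Gbp2 and Gbp3 shared Usp18.

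**Figure D5:**
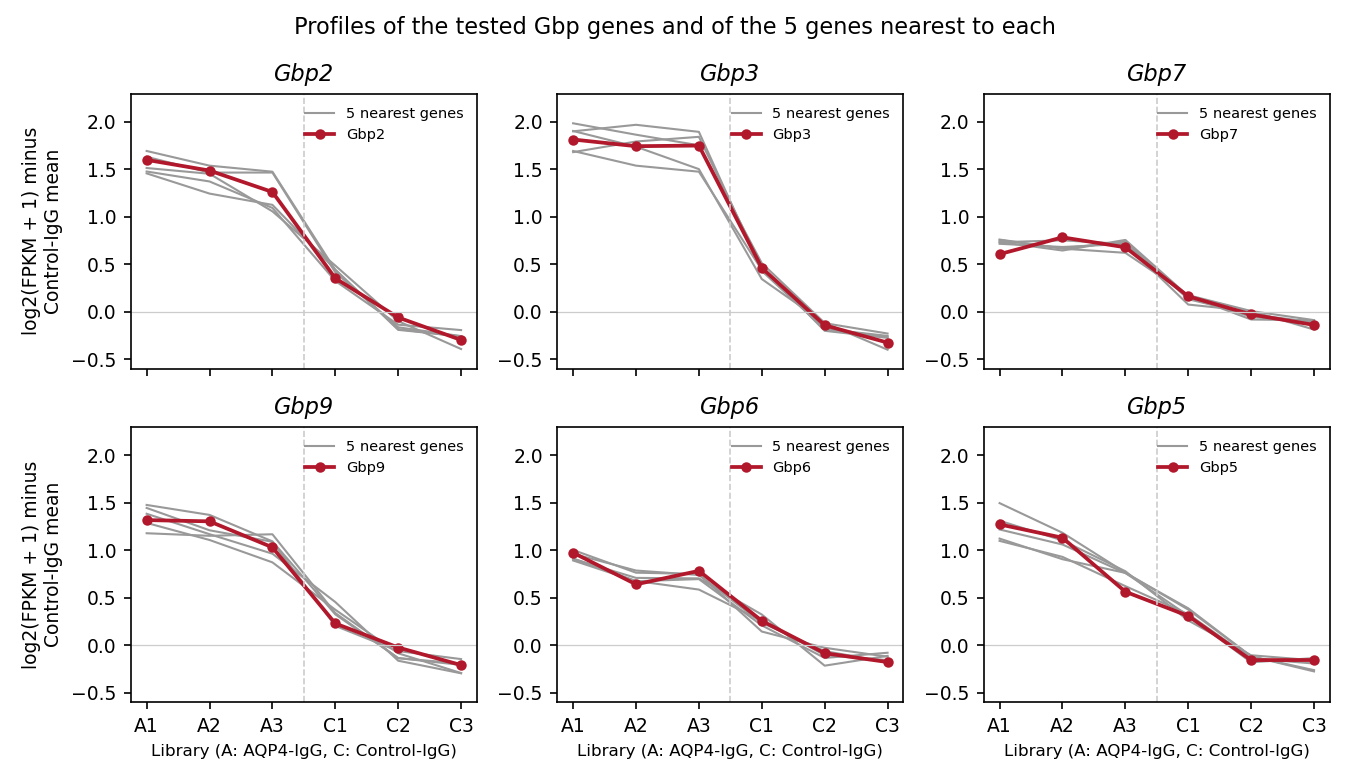
Level of each tested Gbp gene (red) and of the 5 genes nearest to it (grey) as log2(FPKM + 1) minus the Control-IgG mean, in AQP4-IgG libraries 1 to 3 (A1 to A3) and Control-IgG libraries 1 to 3 (C1 to C3). Lines join libraries only so that a gene can be followed; in each panel the Gbp gene is highest among the controls in C1.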

How the data were processed

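RNA from 6 libraries was analysed. Library preparation used a SMARTER mRNA-seq kit, per the labels' protocols. GRCm38 and mm10 are the builds named in the submitters' processing notes. Which aligner and counter were used, and whether strand was, is not given in the sources used here. The authors deposited 1 table whose 6 value columns are FPKM, a unit inferred from the values: times the exon length in GENCODE M21, 98.99% to 99.14% of low values were whole within 0.1. The log2 fold changes and p-values printed as the authors' were deposited by the authors, with no method stated. The columns named for the control match the Control-IgG labels. The others carry a disease abbreviation and a number and were taken as AQP4-IgG, the only other group.

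The test was limma 3.58.1 in R 4.3.3, with trend and robust variance, on log2(FPKM + 1) for the 12334 of 14147 genes whose mean reached 1 FPKM, Benjamini-Hochberg adjusted. The alternatives were median scaling, no trend, no robust estimation, no filter, a pseudocount of 0.1, a replicate block, limma-voom on recovered reads and leaving out each library. The members and lists were chosen with earlier results of these data known. Named genes were all members, Irf1 and the interferon receptor chains, up to 3 genes of each list past the threshold (or the 1 with the smallest p), the 5 nearest profiles of each member, and Lyz2, Cx3cr1 and Gfap. Irf9, Irgm2, Igtp, the atlastins, Acta2, Casp4, Itgam, Slc1a2, Slc1a3, Aqp4 and neighbours of the clusters were added after their values were seen. Reads per gene differed between libraries of a group by a chi-square of 3.67 to 6.68 per gene, more than counting noise gives. Simulated data were used to try the test. The values of 1 gene of the lists are not reported here. Sequences are from RefSeq promoter windows. Floors of 3 reads cover counting error only.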

Additional observations from a re-analysis of the deposited data

How the results depend on the processing

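All tested GBP genes kept their upward direction in every alternative that could fit them. With 1 library left out, log2 fold changes ranged from 1.3 to 1.63 for Gbp2, 1.61 to 2.00 for Gbp3, 0.913 to 1.2 for Gbp5, 0.713 to 0.93 for Gbp6, 0.623 to 0.773 for Gbp7 and 1.12 to 1.33 for Gbp9. Gbp5 could not be fitted without AQP4-IgG 1 or 2, where its mean fell under 1 FPKM. Deviations of same-numbered libraries from their group means correlated at 0.2, 0.00891 and 0.202 for numbers 1, 2 and 3 over 12334 genes. Those of unlike-numbered libraries ran from -0.268 to 0.0818, so numbers 1 and 3 lay above all of them and number 2 did not. The labels state no pairing, and the main test did not use the numbers. Whether same-numbered libraries share a source was not tested. With the replicate number as a block, all 6 tested GBP genes passed (Gbp5 log2 fold change 0.991, adjusted p = 0.00656), and 607 genes were called in place of 258. Limma-voom on recovered reads called 495 genes, and the count was 55 to 390 with 1 library left out. The difference between the changes of Gbp2 and Gbp9 reversed to -0.00406 on recovered reads. Negative regulators called numbered 1 in place of 2 without trend, without robust estimation, with no filter and with a pseudocount of 0.1. Inflammasome genes called numbered 3 with the block and 2 with limma-voom in place of 1. With 1 library left out, the counts were 0 to 6 for the interferon pathway, 0 to 2 for negative regulators, 2 to 5 for GTPases and 0 to 1 for inflammasome genes. Uncalled genes near 0 changed sign in some of these fits: Ifnar2 (-0.0701 to 0.0349), Lyz2 (-0.0832 to 0.0992), Gtf2b (-0.0886 to 0.00484), Pkn2 (-0.0699 to 0.000577) and D930016D06Rik (-0.0969 to 0.0644). The causes were not tested. Depth limits Gbp4, with 11 to 22 reads per Control-IgG library.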

Other observations

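Under the tested level of 1 FPKM, 3 further interferon-inducible GTPases of the list, Mx1, Mx2 and Tgtp1, lay higher in each AQP4-IgG library than in any control, looked up after the data were seen. Of all listed genes, 10.3% showed this order. Mx2 had 1.65, 1.15 and 1.29 FPKM in AQP4-IgG libraries 1 to 3, against 0.626, 0.417 and 0.359 FPKM in Control-IgG libraries 1 to 3. Mx1 had 0.923, 0.672 and 0.412 FPKM in AQP4-IgG libraries 1 to 3, against 0.202, 0.168 and 0.137 FPKM in Control-IgG libraries 1 to 3. Tgtp1 had 0.761, 0.581 and 0.424 FPKM in AQP4-IgG libraries 1 to 3, against 0.046, 0.0174 and 0.0311 FPKM in Control-IgG libraries 1 to 3, and no ratio is given because the controls are close to the level of single reads. Nlrc5, the transactivator of MHC class I genes, averaged 1.27 ± 0.154 FPKM in AQP4-IgG libraries, against 0.731 ± 0.137 FPKM in Control-IgG libraries. Its mean over the 6 libraries is at 1 FPKM only after rounding, and it was not tested.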
